A study of Mus musculus with 6 samples.

Results

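Z-disc, M-band and thin filament genes encode the structural proteins of the sarcomere other than the myosin chains, troponins and tropomyosins, together with the chaperones and adaptors that help to build it. A fixed list of 39 gene symbols was looked up in the deposited count table of 54232 genes, and each of the 39 was found once. Stranded mRNA libraries came from the tibialis anterior, a mostly fast-fibred muscle at the front of the shin, of C57BL6 mice at an age of 1 month. Mice lacking exon 51 of the dystrophin gene Dmd (genotype Delta 51 in the labels) gave 3 libraries, here dEx51 4, 5 and 6. Wild-type mice gave the other 3, WT 1, 2 and 3, and the labels call all 6 biological replicates without saying how many animals or litters they came from. Strain, age and tissue were shared, the labels name no treatment, tissue-restricted Cre or sex, and whole muscle was used, so fibres were measured together with the other cells of the muscle. The design text gives the aim as profiling expression after deletion of the exon.

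The sarcomere is the repeating unit of the contractile fibril. Thin filaments of actin are anchored in the Z-disc by alpha-actinin and its partners, thick filaments of myosin are cross-linked at the M-band by the myomesins, and titin spans the space from Z-disc to M-band while nebulin runs along the thin filament. Desmin filaments tie neighbouring Z-discs to each other and, through costameres, to the membrane complex that contains dystrophin. In developing and regenerating skeletal muscle the cardiac actin isoform is expressed before skeletal actin becomes the main one.

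Levels are given as CPM, counts relative to the library total, after TMM normalisation, which assumes that most genes did not change. Calls rest on an adjusted p below 0.05 in edgeR's quasi-likelihood test over all 14335 genes tested, and log2 fold changes are dEx51 over WT. Totals were 18571038 to 20105817 counts in dEx51 and 15681945 to 21020353 in WT. Dmd itself was at 46.4 to 51.1 CPM in dEx51 and 236 to 266 CPM in WT. Principal component 1, with 72.8% of the variance, placed dEx51 6, at 24.3, nearer to WT (-47.2 to -32.6) than dEx51 4 and 5 (43.5 and 46.8). Of 12 fast fibre markers 0 were called higher and 2 lower. Ckm, Myh4 and Atp2a1, none of them called, averaged 5989, 26318 and 14269 CPM in dEx51 and 8439, 41858 and 20713 CPM in WT. Mylpf, Myl1 and Tnnc2 had positive log2 fold changes, of 0.24, 0.01 and 0.61, and were not called either. Tnnc2 had only 10, 23 and 21 counts in dEx51 4, 5 and 6, against 27, 1 and 0 in WT 1, 2 and 3. Its value (SE of 0.97) therefore says little. The heart markers Nppa, Nppb and Myl7 had 0 to 2 counts in every library.

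All 39 genes passed the filter on low counts, with at least 188 counts in every library. In dEx51 muscle 3 rose, 6 fell and 30 were not called. The called share was 23.1%, against 28.0% of all genes tested. Lower calls made up 15.4% of the 39 genes and 11.9% of all genes tested, and higher calls 7.69% and 16.1%. The median log2 fold change of the 39 genes was -0.24, against -0.01 over all genes tested, and 26 of 39 values were negative, or 66.7%, against 51.2% of all genes tested. In 14 genes (35.9%) every dEx51 library lay below every WT library, and in 4 (10.3%) every dEx51 library lay above. Over all genes tested these shares were 21.7% and 23.8%, and 45.5% had no overlap in either direction.

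**Figure D1:**
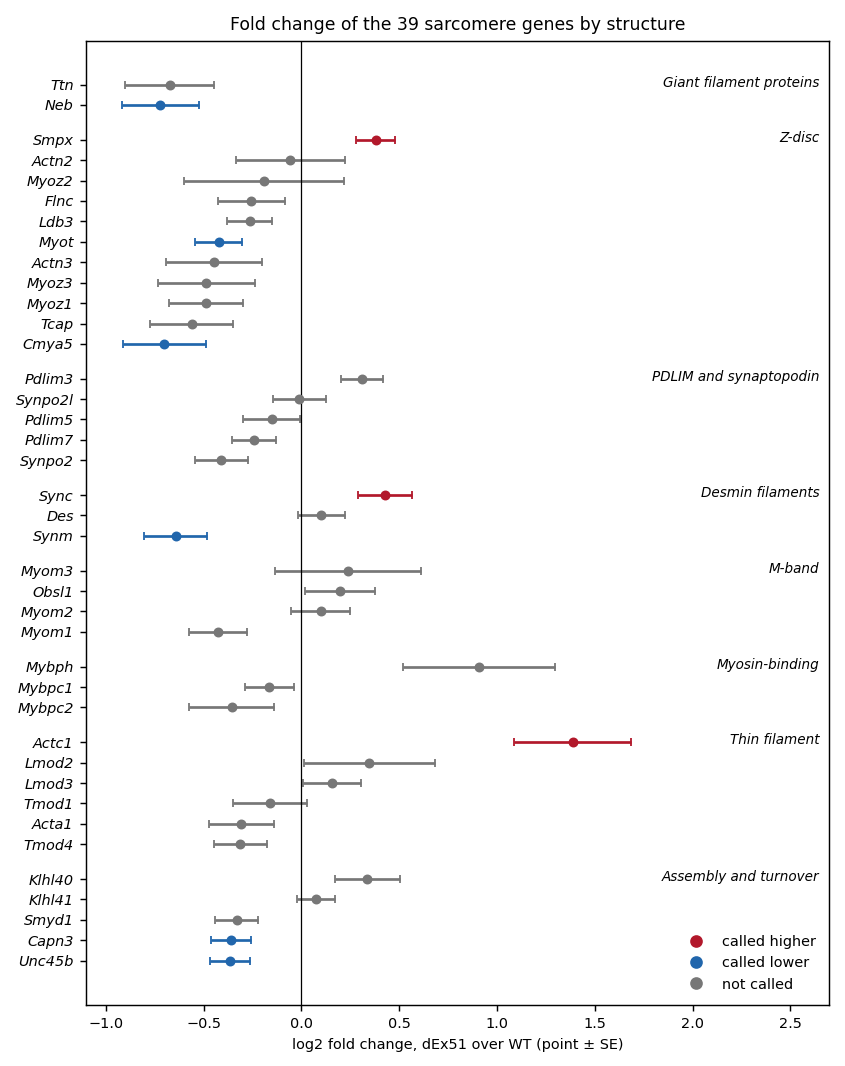
Log2 fold change, dEx51 over WT, of each of the 39 genes (points) with its standard error (bars), arranged by the structure the protein belongs to. Actc1 stands at 1.39, and the 6 genes called lower lie between -0.72 and -0.36.

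The counts of calls rest on the scaling and on single libraries. With scaling to library size alone, which moved the median of all genes by 0.35, the median of the 39 genes was 0.11, 12 were called higher and 1, Neb, was called lower. These are 30.8% and 2.56% of the list, against 37.6% and 2.33% of all genes tested under that scaling. TMM factors were 1.04 to 1.19 in dEx51 and 0.869 to 0.898 in WT. The 39 genes summed to 7.83%, 8.13% and 8.97% of all counts in dEx51 4, 5 and 6, against 9.003%, 8.73% and 8.55% in WT 1, 2 and 3, so as a share of the library the groups overlapped. On the TMM scale the sums were 67368, 68509 and 86508 CPM in dEx51, against 100312, 100522 and 96055 CPM in WT, with no overlap. The share of counts from the mitochondrial genome was 13.4% to 14.8% in dEx51 and 19.4% to 21.1% in WT, and its part in the gap between these scales was not tested. Without dEx51 6, 16 of the 39 genes (41.03%) were called lower and 2 (5.13%) higher, against 14.6% and 18.0% of all genes in that fit. The count was 1 lower and 1 higher without dEx51 4, where all genes gave 6.80% and 11.6%, and 0 and 2 without dEx51 5, where they gave 5.21% and 11.2%. It was 2 and 2 without WT 1 (8.34% and 13.7% of all genes), 0 and 0 without WT 2 (4.49% and 9.12%), and 0 and 1 without WT 3 (8.37% and 12.4%). Fits without 1 library have fewer residual degrees of freedom.

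Within the dEx51 group the libraries did not move alike. In 24 of the 39 genes dEx51 6 was the highest of the 3 dEx51 libraries, in 11 the lowest and in 4 it lay between the others. The median SD of log2 CPM among replicates was 0.265 in dEx51 and 0.11 in WT, and 29 genes had the wider spread in dEx51. The order of the libraries and the spread were not computed over all genes tested. These values therefore have no background here and may not be particular to the list. Of the 9 called genes, dEx51 6 lay nearest to the WT mean in 7, and over all 4010 called genes it did so in 63.9%. The 12 fast fibre markers summed to 85332, 82808 and 122351 CPM in dEx51 4, 5 and 6, against 128802 to 134210 CPM in WT, again with the highest mutant sum in dEx51 6, and of the 12 markers 0 rose and 2, Ryr1 and Cacna1s, fell. Their part in the values of the sarcomere genes was not tested. In a bulk sample, fewer fibres and less of an RNA per fibre cannot be told apart.

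**Figure D2:**
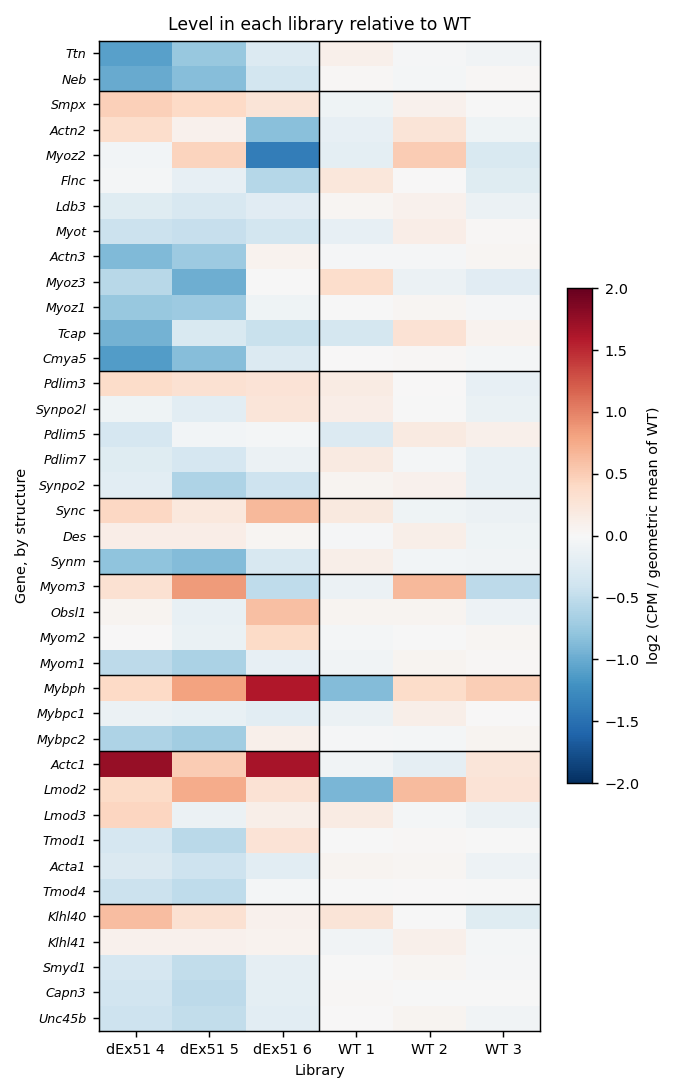
Log2 ratio of TMM-scaled CPM in each library to the geometric mean of the 3 WT libraries, for the 39 genes (rows, by structure) in the dEx51 and WT libraries (columns). Neb, Cmya5 and Synm are lower in dEx51 4 and 5 than in dEx51 6, while among the mutant libraries Actn2, Myoz2 and Myom3 are lowest in dEx51 6.

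Cardiac actin rose in dEx51 muscle, and skeletal actin was not called by edgeR's quasi-likelihood test. Actc1 encodes the actin isoform of heart and of immature skeletal fibres (chromosome 2, 114047282 to 114053548 in GRCm38) and had 835, 353 and 777 CPM in dEx51 4, 5 and 6, against 238, 219 and 295 CPM in WT 1, 2 and 3. Every dEx51 library lay above every WT library, and dEx51 5 was lower than the other mutant libraries. The means were 655 ± 263 CPM in dEx51 and 250.5 ± 39.6 CPM in WT (SD, n = 3 each), and the mutant mean was 261% of the WT mean (log2 fold change of 1.39, SE of 0.299 and edgeR adjusted p = 0.0121). The call was kept in 17 of 18 alternatives and ended without WT 2 (Actc1 log2 fold change 1.29, edgeR adjusted p = 0.056). Acta1, skeletal alpha-actin (chromosome 8, 123891769 to 123894751), had 20765, 19108 and 21883 CPM in dEx51 4, 5 and 6, against 26455, 26238 and 23786 CPM in WT 1, 2 and 3. All dEx51 libraries lay below all WT libraries on this scale, and the gene was not called (log2 fold change of -0.31, SE of 0.166 and edgeR adjusted p = 0.201). Its value was 0.04 with scaling to library size alone. Acta1 was called lower in 2 of 18 alternatives, DESeq2's Wald test (adjusted p = 0.0133) and the fit without dEx51 6 (edgeR adjusted p = 0.0303), and its FDR in the authors' deposited table is 0.0209.

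Per length, Acta1 had the highest level of the 39 genes, at 13402 CPM per kilobase in dEx51 and 16597 in WT. The Actc1 transcript examined in GENCODE M21 had 0 stretches of 50 bases in common with a transcript of another gene, and Acta1 shared 31 of its 1397, or 2.22%, with the gene models Gm47692 and Gm8543 and with Actb. How the authors counted reads that match several genes is not stated in the sources used here.

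The upstream sequences of both actin genes are shown because both encode the actin of the thin filament, with those of Myom1 and Ttn, whose products share the M-band, as examples of the next results. Each is the 250 bases before the RefSeq start, 5′ to 3′, and capitals mark matches to the CArG box (the binding sequence of serum response factor), to the MEF2 site and to the TATA box. The windows of Actc1 and Myom1 lie inside the spans of these genes in GENCODE M21 (71002633 to 71126856 for Myom1), so the RefSeq start is not the outermost annotated start there. For Acta1 the window begins at 123894776 and the GENCODE M21 span ends at 123894751, so the starts differ too. Distances to the RefSeq start are thus not distances to the outermost GENCODE M21 start in either actin gene.
Actc1 (GRCm38.p6, chr2:114052876-114053125, reverse strand): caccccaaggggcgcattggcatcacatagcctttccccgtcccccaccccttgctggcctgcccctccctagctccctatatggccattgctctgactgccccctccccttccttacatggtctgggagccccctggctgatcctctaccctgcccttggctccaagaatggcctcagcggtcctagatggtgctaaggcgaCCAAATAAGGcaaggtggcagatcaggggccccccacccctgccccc
Acta1 (GRCm38.p6, chr8:123894776-123895025, reverse strand): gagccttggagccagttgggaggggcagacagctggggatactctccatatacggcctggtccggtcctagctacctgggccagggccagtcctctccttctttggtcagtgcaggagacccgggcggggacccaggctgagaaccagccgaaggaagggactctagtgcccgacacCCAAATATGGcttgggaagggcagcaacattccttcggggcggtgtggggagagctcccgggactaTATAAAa
Myom1 (GRCm38.p6, chr17:71019307-71019556, forward strand): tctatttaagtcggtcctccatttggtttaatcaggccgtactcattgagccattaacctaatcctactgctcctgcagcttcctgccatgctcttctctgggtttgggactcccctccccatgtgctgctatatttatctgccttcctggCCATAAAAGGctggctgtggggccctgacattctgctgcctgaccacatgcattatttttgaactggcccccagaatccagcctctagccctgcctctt
Ttn (GRCm38.p6, chr2:76982548-76982797, reverse strand): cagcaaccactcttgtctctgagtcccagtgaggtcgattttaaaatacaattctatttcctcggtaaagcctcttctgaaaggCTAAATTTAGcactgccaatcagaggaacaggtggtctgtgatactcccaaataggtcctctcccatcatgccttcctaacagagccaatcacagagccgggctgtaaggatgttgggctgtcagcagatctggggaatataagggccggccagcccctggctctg
The RefSeq table of GRCm38.p6 holds starts for 31 of the 39 genes, 36 starts in all. Searched on both strands, a CArG box stood in 5 of these 36 windows, or 13.9%, against 1.47% of all 32851 windows of this length, and in 4 of 31 genes: Actc1, Acta1, Ldb3 and Myom1. A MEF2 site stood in 22.2% of windows against 2.92%, the E-box CANNTG in 72.2% against 66.2%, and the M-CAT element CATTCC in 16.7% against 12.6%. TATAAA, searched on the forward strand, stood in 2.78% against 7.59%. These are matches of letters in a window. Both starts of Ldb3 hold the same CArG box, and a window can hold several motifs. Both actin genes hold a CArG box, at 47 to 38 bases before the RefSeq start in Actc1 and 73 to 64 in Acta1.

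The caps and nucleators of the thin filament were not called. Tmod1 and Tmod4 encode tropomodulins, which cap the pointed end of the filament, and Lmod2 and Lmod3 encode leiomodins, which nucleate and lengthen it. Tmod4 had 249, 236 and 329 CPM in dEx51 4, 5 and 6, against 335, 338 and 336 CPM in WT 1, 2 and 3, and all dEx51 libraries lay below all WT libraries (log2 fold change of -0.31, SE of 0.134 and edgeR adjusted p = 0.119). Its fold change was 0.03 with scaling to library size alone. For Tmod1 the values were 125, 108 and 189.8 CPM in dEx51 4, 5 and 6, against 156, 160.5 and 156 CPM in WT 1, 2 and 3 (log2 fold change of -0.16, SE of 0.191 and edgeR adjusted p = 0.567). The dEx51 libraries surrounded the narrow WT range. In GENCODE M21, 32.6% of the exon bases of Tmod1 also lie in exons of Tstd2 on the opposite strand. Tstd2 was at 9.55 ± 0.606 CPM in dEx51 and 10.3 ± 0.968 CPM in WT. Whether the authors' counting used the strand is not stated in the sources used here, which bears on every opposite-strand overlap below. Lmod2 had 245, 317 and 230.1 CPM in dEx51 4, 5 and 6, against 101, 294 and 228 CPM in WT 1, 2 and 3 (log2 fold change of 0.35, SE of 0.336 and edgeR adjusted p = 0.475), and WT 1 stood below the 5 other libraries. Lmod3 had 227, 155 and 184 CPM in dEx51 4, 5 and 6, against 188, 164 and 155 CPM in WT 1, 2 and 3 (log2 fold change of 0.15, SE of 0.149 and edgeR adjusted p = 0.472), with overlapping groups. Ratios of partner genes within a library do not depend on scaling between libraries, and with 3 against 3 libraries 0.1 is the smallest p their test can give, so no ratio could pass. The group difference in Lmod2 to Lmod3 was 0.33 on the log2 scale (exact two-sided permutation p = 0.8, adjusted 1 over 10 pairs), and in Tmod1 to Tmod4 it was 0.12 on the log2 scale (exact two-sided permutation p = 0.4, adjusted 0.667 over 10 pairs).

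Nebulin fell, and titin was close to the threshold. Neb, the gene of the thin filament ruler (chromosome 2, 52136647 to 52378474), had 6934, 7724 and 10798 CPM in dEx51 4, 5 and 6, against 14181, 13634 and 14137 CPM in WT 1, 2 and 3. Every dEx51 library was below every WT library, and dEx51 6 stood between the other mutant libraries and WT. Nebulin RNA in dEx51 was 60.7% of WT (log2 fold change of -0.72, SE of 0.197 and edgeR adjusted p = 0.0289). The gene was called lower with scaling to library size alone too (-0.39, edgeR adjusted p = 0.0484), the only member of the list of which that was true. The call ended without dEx51 4, dEx51 5, WT 1, WT 2 or WT 3, where the log2 fold change was -0.75 to -0.59. Ttn, which encodes titin (chromosome 2, 76703980 to 76982547), had 9346, 11740 and 16376 CPM in dEx51 4, 5 and 6, against 21335, 19502 and 18915 CPM in WT 1, 2 and 3. These groups did not overlap either, and the gene was not called (log2 fold change of -0.67, SE of 0.227 and edgeR adjusted p = 0.0582). The call depended on the test, and Ttn was called lower in 6 of 18 alternatives. These were limma-voom (adjusted p = 0.0382), the robust fit (0.0455), DESeq2's Wald test (0.00383), no filter on low counts (0.0016), the likelihood-ratio test (0.00781) and the fit without dEx51 6 (0.00213). In the authors' deposited table its FDR is 0.000295. Its value stayed negative with scaling to library size alone, at -0.34.

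The Z-disc core consists here of actin cross-linkers, the proteins that bind them and signalling scaffolds. Of its 11 genes 1 rose, 2 fell and 8 were not called, and 10 of 11 values were negative. Over all genes tested 16.1% were called higher and 11.9% lower, and 51.2% of values were negative. Counts for single structures, here and below, rest on few genes and are to be read beside these shares. The values of Actn2, Myoz2, Ldb3 and Flnc were positive with scaling to library size alone.

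Cmya5 encodes myospryn, a large protein of the Z-disc and costamere region that binds alpha-actinin and desmin. It had 1904, 2284 and 3399 CPM in dEx51 4, 5 and 6, against 4119, 4193 and 4020 CPM in WT 1, 2 and 3. The groups did not overlap, and the level in dEx51 was 61.5% of WT (log2 fold change of -0.70, SE of 0.211 and edgeR adjusted p = 0.0407). In GENCODE M21, 21.7% of its exon bases also lie in exons of A630019I02Rik and Gm4814 on the opposite strand. Myot, which encodes the actin-bundling Z-disc protein myotilin, had 1193, 1173 and 1254 CPM in dEx51 4, 5 and 6, against 1442, 1776 and 1635 CPM in WT 1, 2 and 3. Each dEx51 library was below each WT library, with close values in all mutant libraries (log2 fold change of -0.42, SE of 0.119 and edgeR adjusted p = 0.0322). Both calls ended with scaling to library size alone, at -0.37 for Cmya5 and -0.07 for Myot. Smpx, the X-linked gene of a small stress-responsive protein of striated muscle, had 326, 309 and 281 CPM in dEx51 4, 5 and 6, against 222, 249 and 233 CPM in WT 1, 2 and 3. All mutant libraries lay above WT, at 130.1% of the WT mean (log2 fold change of 0.38, SE of 0.0984 and edgeR adjusted p = 0.0238), and the call was kept under every scaling tried. The calls of these 3 genes ended in 4 or 5 of the 6 fits without 1 library, at log2 fold changes of -0.72 to -0.53 for Cmya5, -0.42 to -0.36 for Myot and 0.33 to 0.42 for Smpx.

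**Figure D3:**
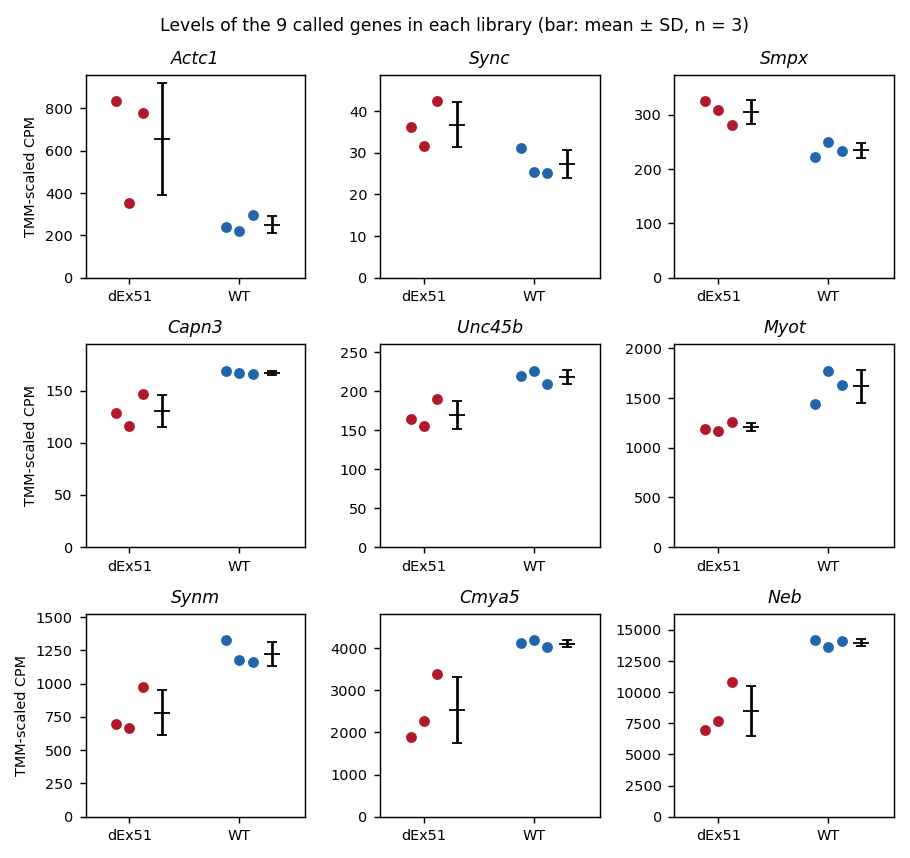
TMM-scaled CPM of the 9 called genes in the 3 dEx51 libraries (red, left) and the 3 WT libraries (blue, right), with mean ± SD as bars. In each of the 9 genes the groups do not overlap, and dEx51 6 is the mutant library nearest to WT in 7.

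Alpha-actinins cross-link actin filaments in the Z-disc, Actn2 in all striated fibres and Actn3 in fast fibres. Actn2 had 1682, 1399 and 733 CPM in dEx51 4, 5 and 6, against 1165, 1562 and 1239 CPM in WT 1, 2 and 3 (log2 fold change of -0.06, SE of 0.2795 and edgeR adjusted p = 0.899). Its lowest value was in dEx51 6 and its highest in dEx51 4. Actn3 had 3378, 3764 and 6506 CPM in dEx51 4, 5 and 6, against 6133, 6128 and 6344 CPM in WT 1, 2 and 3 (log2 fold change of -0.45, SE of 0.245 and edgeR adjusted p = 0.208), and dEx51 6 lay above all WT libraries while dEx51 4 and 5 lay below. Per base, Actn2 as a percentage of Actn3 was 37.98%, 28.3% and 8.59% in dEx51 4, 5 and 6, against 14.5%, 19.4% and 14.9% in WT 1, 2 and 3. The mutant libraries lay on both sides of WT in this ratio, with a difference of group means of 0.38 on the log2 scale (exact two-sided permutation p = 0.6, adjusted 0.857 over 10 pairs).

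Myozenins, also called calsarcins, bind alpha-actinin and calcineurin, with Myoz1 and Myoz3 typical of fast fibres and Myoz2 of slow fibres and heart. Myoz1 had 838, 861 and 1346 CPM in dEx51 4, 5 and 6, against 1415, 1455 and 1399 CPM in WT 1, 2 and 3. The groups did not overlap, and the gene was not called (log2 fold change of -0.49, SE of 0.188 and edgeR adjusted p = 0.0881). Myoz2 had 70.8, 99.8 and 28.04 CPM in dEx51 4, 5 and 6, against 63.6, 104 and 59.2 CPM in WT 1, 2 and 3 (log2 fold change of -0.19, SE of 0.4104 and edgeR adjusted p = 0.763), where dEx51 5 and WT 2 were high and dEx51 6 was lowest. Myoz3 had 31.6, 23.4 and 45.8 CPM in dEx51 4, 5 and 6, against 59.04, 42.4 and 39.2 CPM in WT 1, 2 and 3 (log2 fold change of -0.49, SE of 0.247 and edgeR adjusted p = 0.176), with overlapping groups. The deposited length of Myoz3 is 870 bases, against 3436 in GENCODE M21, so its level per length is not compared here. The group difference in the ratio of Myoz2 to Myoz1 was 0.20 on the log2 scale (exact two-sided permutation p = 0.9, adjusted 1 over 10 pairs), and that in Myoz3 to Myoz1 was 0.01 on the log2 scale (exact two-sided permutation p = 1, adjusted 1 over 10 pairs).

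In dEx51 6 the genes Actn2, Myoz2 and Myom3 differed from the mean of dEx51 4 and 5 by -1.06, -1.58 and -1.09 on the log2 scale, the lowest differences of the 39. Mybph, Actn3 and Mybpc2 had the highest, at 0.99, 0.87 and 0.76. Of 10 slow and oxidative fibre markers 5 rose and 1 fell. They summed to 1586, 2629 and 850 CPM in dEx51 4, 5 and 6, against 2195, 5027 and 2572 CPM in WT 1, 2 and 3. Myh2, the fast oxidative myosin heavy chain and the largest part of that sum, had 1148, 2263 and 475 CPM in dEx51 4, 5 and 6, against 1908, 4683 and 2326 CPM in WT 1, 2 and 3. Myh4, the fastest heavy chain, had 20277, 20087 and 38588 CPM in dEx51 4, 5 and 6, against 42235, 39353 and 43987 CPM in WT 1, 2 and 3. Some other members of these marker lists were ordered otherwise. The fast marker Myh1 had 12201, 11038 and 8929 CPM in dEx51 4, 5 and 6, lowest in dEx51 6. The slow marker Tnnc1 had 251, 158 and 278 counts in dEx51 4, 5 and 6, and Tnnt1 had 694, 423 and 755. Both were highest in dEx51 6. The part of these fibre type markers in the order of the sarcomere genes was not tested.

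Ldb3, Tcap and Flnc complete the Z-disc group, and none was called. Ldb3 encodes the scaffold ZASP or cypher, Tcap encodes telethonin, which caps titin, and Flnc encodes filamin C, an actin cross-linker of Z-disc and membrane. Ldb3 was at 1453 ± 55.9 CPM in dEx51 and 1745 ± 131 CPM in WT (log2 fold change of -0.26, SE of 0.113 and edgeR adjusted p = 0.117), without overlap between libraries. Tcap averaged 1276 ± 281 CPM in dEx51 and 1884 ± 410.3 CPM in WT (log2 fold change of -0.56, SE of 0.214 and edgeR adjusted p = 0.0854), and Flnc 635 ± 114 CPM in dEx51 and 758 ± 123 CPM in WT (log2 fold change of -0.26, SE of 0.171 and edgeR adjusted p = 0.297), both with overlapping libraries.

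Among the PDLIM and synaptopodin-like genes 0 of 5 were called, and 3 of the 5 had an unadjusted p over 0.05. Pdlim3, Pdlim5 and Pdlim7 encode PDZ and LIM domain adaptors that bind alpha-actinin, and Synpo2 and Synpo2l encode actin-binding Z-disc proteins. Pdlim3, also known as ALP, had 376, 358 and 350.5 CPM in dEx51 4, 5 and 6, against 324, 293 and 258 CPM in WT 1, 2 and 3, without overlap (log2 fold change of 0.31, SE of 0.108 and edgeR adjusted p = 0.0653). It was called higher with scaling to library size alone (0.66, edgeR adjusted p = 0.00399). Synpo2, myopodin, had 876, 658 and 759 CPM in dEx51 4, 5 and 6, against 1054, 1076 and 915 CPM in WT 1, 2 and 3, again without overlap but in the other direction (log2 fold change of -0.41, SE of 0.136 and edgeR adjusted p = 0.0558). Synpo2 is also a gene of smooth muscle, and the 10 smooth muscle and pericyte markers summed to 742 to 838 CPM in dEx51 and 1156 to 1268 CPM in WT, with 0 members higher and 4 lower. Rgs5, 1 of the 4, made up 549 CPM of the mean in dEx51 and 884 CPM in WT. Acta2 and Cspg4 had positive log2 fold changes, of 0.24 and 0.07, and were not called. The part of smooth muscle cells and pericytes in the Synpo2 value was not tested. Pdlim5 was at 451 ± 51.2 CPM in dEx51 and 501 ± 80.8 CPM in WT, Pdlim7 at 127 ± 9.89 CPM in dEx51 and 149.7 ± 17.3 CPM in WT and Synpo2l at 204 ± 34.3 CPM in dEx51 and 205 ± 18.8 CPM in WT, with log2 fold changes of -0.15, -0.24 and -0.01. All 3 were positive with scaling to library size alone, and Synpo2l was called higher (0.33).

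Of the 3 desmin filament genes 1, Sync, rose, 1, Synm, fell and Des was not called. Des encodes desmin, the intermediate filament of muscle, and had 2696, 2711 and 2539 CPM in dEx51 4, 5 and 6, against 2425, 2662 and 2315 CPM in WT 1, 2 and 3. The gene was not called (log2 fold change of 0.10, SE of 0.119 and edgeR adjusted p = 0.557) and the groups overlapped. Synm encodes synemin, a large filament protein that joins desmin to the dystrophin-associated complex, and had 699, 670.3 and 977 CPM in dEx51 4, 5 and 6, against 1327, 1176 and 1163 CPM in WT 1, 2 and 3. Its groups did not overlap, and dEx51 was at 64.03% of WT (log2 fold change of -0.64, SE of 0.162 and edgeR adjusted p = 0.0215). Sync encodes syncoilin, which binds desmin and alpha-dystrobrevin, and had 36.2, 31.5 and 42.4 CPM in dEx51 4, 5 and 6, against 31.2, 25.5 and 25.1 CPM in WT 1, 2 and 3. All mutant libraries were above WT, by a small margin between dEx51 5 and WT 1, at 135% of the WT mean (log2 fold change of 0.43, SE of 0.137 and edgeR adjusted p = 0.0497). Of the exon bases of Sync, 27.3% also lie in exons of Rbbp4 on the opposite strand, and Rbbp4 was called higher as well, at 83.5 ± 0.742 CPM in dEx51 and 59.9 ± 2.28 CPM in WT (0.48). Its part in the Sync value was not tested. The call of Synm ended with scaling to library size alone (-0.31, edgeR adjusted p = 0.0736) and in 5 of 6 fits without 1 library, all but that without dEx51 6. The call of Sync ended without dEx51 4, dEx51 6, WT 2 or WT 3, with limma-voom, and when the 20 most abundant genes were left out of the TMM scaling.

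None of the 4 M-band genes was called, while Myom2 relative to Myom1 was higher in every dEx51 library than in every WT library. Myom1, Myom2 and Myom3 encode myomesins, the cross-linkers of thick filaments, and Obsl1 encodes obscurin-like 1, which binds myomesin and titin. Myom1 had 1636, 1523 and 2091 CPM in dEx51 4, 5 and 6, against 2235, 2429 and 2388 CPM in WT 1, 2 and 3, with all dEx51 libraries below all WT libraries (log2 fold change of -0.43, SE of 0.147 and edgeR adjusted p = 0.063). Myom2, the M-protein of fast fibres, had 1806, 1630 and 2329 CPM in dEx51 4, 5 and 6, against 1742, 1789 and 1850 CPM in WT 1, 2 and 3, with overlap (log2 fold change of 0.10, SE of 0.151 and edgeR adjusted p = 0.66). Per base, Myom2 as a percentage of Myom1 was 70.7%, 68.5% and 71.3% in dEx51 4, 5 and 6, against 49.9%, 47.2% and 49.6% in WT 1, 2 and 3. Both groups were narrow and far apart, with log2 SDs of 0.0303 in dEx51 and 0.0451 in WT. The difference of group means was 0.52 on the log2 scale (exact two-sided permutation p = 0.1, adjusted 0.333 over 10 pairs), and it was 0.50 to 0.54 in the fits without 1 library. The deposited length of Myom1 is 5672 bases against 10459 in GENCODE M21, which changes the percentages and not the difference between groups, and the lengths of Actn3 and Synpo2 differ from GENCODE M21 too. Myom3 had 40.04, 58.8 and 22.9 CPM in dEx51 4, 5 and 6, against 29.8, 50.9 and 22.4 CPM in WT 1, 2 and 3, with a wide range in both groups (log2 fold change of 0.24, SE of 0.373 and edgeR adjusted p = 0.671), and in its ratio to Myom1 the groups overlapped, at 0.66 on the log2 scale (exact two-sided permutation p = 0.4, adjusted 0.667 over 10 pairs). Obsl1 was at 71.5 ± 19.8 CPM in dEx51 and 62.2 ± 3.82 CPM in WT (log2 fold change of 0.20, SE of 0.178 and edgeR adjusted p = 0.44).

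**Figure D4:**
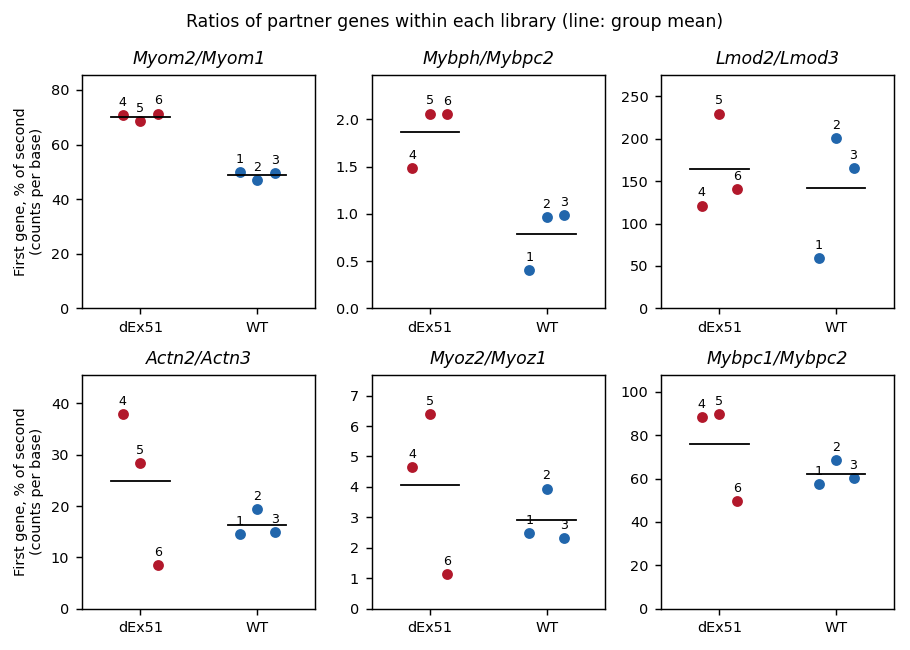
First gene as a percentage of the second, in counts per base of deposited length, in each dEx51 (red, left) and WT (blue, right) library, numbered by replicate, with a line at the group mean. Myom2/Myom1 and Mybph/Mybpc2 do not overlap between groups and Lmod2/Lmod3 does, while Actn2/Actn3, Myoz2/Myoz1 and Mybpc1/Mybpc2 have dEx51 6 below and dEx51 4 and 5 above all WT libraries.

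Myosin-binding protein C genes were not called. Mybpc1 and Mybpc2 encode the slow and fast skeletal forms, which hold thick filaments together and modulate their contact with actin, and Mybph encodes the related protein H. Mybpc1 had 2893, 2810 and 2700 CPM in dEx51 4, 5 and 6, against 2871, 3377 and 3160 CPM in WT 1, 2 and 3 (log2 fold change of -0.16, SE of 0.123 and edgeR adjusted p = 0.355), and Mybpc2 had 2614, 2496 and 4330 CPM in dEx51 4, 5 and 6, against 3979, 3924 and 4188 CPM in WT 1, 2 and 3 (log2 fold change of -0.36, SE of 0.218 and edgeR adjusted p = 0.255), both with overlap. Mybph had 24.98, 33.2 and 57.4 CPM in dEx51 4, 5 and 6, against 10.4, 24.5 and 26.7 CPM in WT 1, 2 and 3 (log2 fold change of 0.91, SE of 0.389 and edgeR adjusted p = 0.117). On the CPM scale dEx51 4 lay within the WT range for Mybph, and WT 1 was low. Of 18 alternatives Mybph was called higher in 6. Per base, Mybph as a percentage of Mybpc2 was 1.48%, 2.06% and 2.05% in dEx51 4, 5 and 6, against 0.405%, 0.968% and 0.989% in WT 1, 2 and 3. These groups did not overlap, and the difference of group means was 1.34 on the log2 scale (exact two-sided permutation p = 0.1, adjusted 0.333 over 10 pairs). Adora1 on the opposite strand shares 49.9% of the exon bases of Mybph, and Adora1 was at 1.36 ± 0.465 CPM in dEx51 and 0.828 ± 0.338 CPM in WT. For Mybpc1 to Mybpc2 the difference was 0.24 on the log2 scale (exact two-sided permutation p = 0.4, adjusted 0.667 over 10 pairs).

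Of the 5 genes that serve assembly and turnover, 0 rose and 2 fell, beside 16.1% and 11.9% of all genes tested. Unc45b encodes the myosin chaperone of striated muscle and had 165, 155 and 189.8 CPM in dEx51 4, 5 and 6, against 220.1, 227 and 209 CPM in WT 1, 2 and 3. Its groups did not overlap (log2 fold change of -0.37, SE of 0.102 and edgeR adjusted p = 0.0318). Capn3 encodes calpain 3, a protease held on titin, and had 128, 116 and 147 CPM in dEx51 4, 5 and 6, against 169, 167 and 165 CPM in WT 1, 2 and 3, again without overlap (log2 fold change of -0.36, SE of 0.103 and edgeR adjusted p = 0.0347). On the same strand Ganc shares 7.68% of the exon bases of Capn3 and was called lower too (-0.37). Scaling to library size alone ended both calls, at -0.02 for Unc45b and -0.02 for Capn3, and they ended in 5 of 6 fits without 1 library, all but that without dEx51 6. Smyd1 encodes the lysine methyltransferase that works with Unc45b on myosin, and had 478, 429 and 529 CPM in dEx51 4, 5 and 6, against 596, 620 and 590.4 CPM in WT 1, 2 and 3, below WT in every mutant library but not called (log2 fold change of -0.33, SE of 0.108 and edgeR adjusted p = 0.0537). Klhl40 and Klhl41 encode kelch proteins that stabilise nebulin and leiomodin. Klhl40 was at 83.4 ± 15.6 CPM in dEx51 and 65.98 ± 11.7 CPM in WT (log2 fold change of 0.34, SE of 0.168 and edgeR adjusted p = 0.167) and Klhl41 at 704 ± 3.42 CPM in dEx51 and 667 ± 41.8 CPM in WT (log2 fold change of 0.08, SE of 0.0976 and edgeR adjusted p = 0.598), with overlap in both. Both kelch genes were called higher with scaling to library size alone, at 0.70 and 0.43, and Smyd1 was at 0.01.

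Length was a feature that the list did not use. The 4 genes of at least 10000 bases, Ttn, Neb, Synpo2 and Cmya5, had log2 fold changes of -0.72 to -0.41, with a median of -0.69 and 2 calls, both lower. The 35 shorter genes had a median of -0.16, with 3 called higher and 4 lower. Over all genes tested the medians were -0.08 for 1303 genes of at least 10000 bases and -0.0049 for 13032 shorter ones. Across genes, Spearman's rho between length and log2 fold change was -0.23 over the 39 genes and -0.03 over all genes tested. Genes are not independent replicates, and all of these values come from the same 6 libraries, so the correlations are descriptions. Of all genes tested, 16.2% of the longer ones were called lower and 12.7% higher, against 11.4% and 16.4% of the shorter ones. The lengths are those deposited. In GENCODE M21 Myom1 has 10459 bases and would join the longer genes, at -0.43. This grouping by length was chosen after the values were seen.

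**Figure D5:**
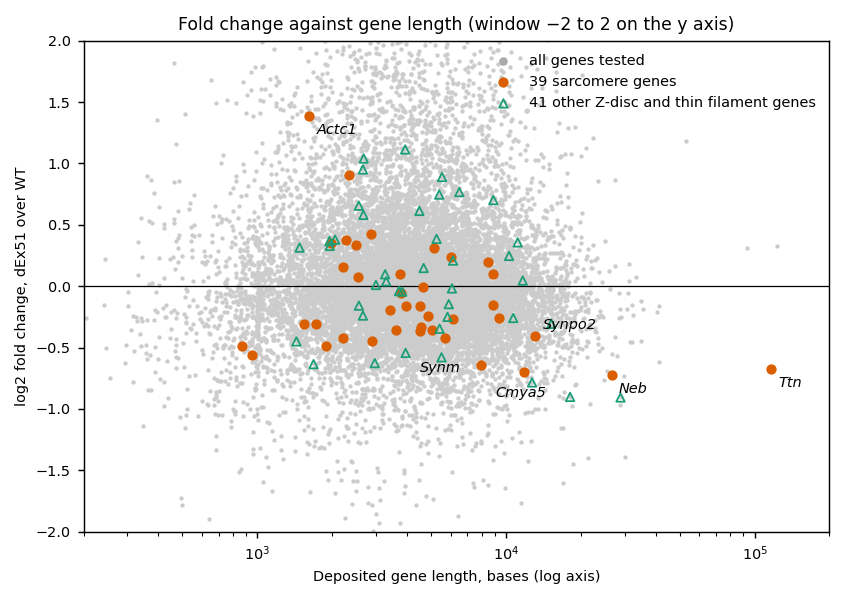
Log2 fold change, dEx51 over WT, against deposited gene length on a log axis for all genes tested (grey), the 39 sarcomere genes (orange) and 41 other Z-disc and thin filament genes (green triangles). Ttn, Neb, Cmya5 and Synpo2 lie between -0.72 and -0.41, and genes outside the window of the plot are not drawn.

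Of 41 other Z-disc and thin filament genes, all tested, 8 rose (19.5%) and 6 fell (14.6%), against 16.1% and 11.9% of all genes tested, and 27 were not called, with a median log2 fold change of 0.05. Actn1, a non-muscle alpha-actinin gene, had 36.3, 33.3 and 30.7 CPM in dEx51 4, 5 and 6, against 18.5, 17.9 and 17.8 CPM in WT 1, 2 and 3 (log2 fold change of 0.89, SE of 0.0957 and edgeR adjusted p = 0.00104). The cytosolic chaperone gene Hsp90aa1 was at 48.98 ± 10.8 CPM in dEx51 and 22.6 ± 1.31 CPM in WT (1.11) and the actin-disassembly gene Wdr1 at 81.5 ± 14.4 CPM in dEx51 and 50.1 ± 6.38 CPM in WT (0.70). Plec, which encodes plectin, the linker of desmin to Z-disc and membrane, had 656, 609.8 and 685 CPM in dEx51 4, 5 and 6, against 1382, 1175 and 1089 CPM in WT 1, 2 and 3 (log2 fold change of -0.90, SE of 0.124 and edgeR adjusted p = 0.00236). Speg, a titin-like kinase gene, was at 234 ± 35.3 CPM in dEx51 and 403 ± 55.8 CPM in WT (-0.78) and Fhl3, a LIM domain gene, at 91.8 ± 13.7 CPM in dEx51 and 142 ± 12.8 CPM in WT (-0.64). In each of these 6 genes the groups did not overlap, and Actn1, Hsp90aa1, Plec and Speg were called in all 18 alternatives. The 6 were named for their small adjusted p, so both traits follow in part from that choice. Some of the other called genes of the 41 had overlapping groups. The call of Wdr1 ended without WT 2 and that of Fhl3 with scaling to library size alone. Under that scaling 19 of the 41 genes (46.3%) were called higher and 3 (7.32%) lower, against 37.6% and 2.33% of all genes tested. Without dEx51 6, 13 of the 41 (31.7%) were called higher and 10 (24.4%) lower, against 18.05% and 14.62% of all genes in that fit. The counts were 4 and 6 without dEx51 4, where all genes gave 11.65% and 6.80%. They were 4 and 5 without dEx51 5 (11.2% and 5.21% of all genes) and 9 and 5 without WT 1 (13.7% and 8.34%). Without WT 2 they were 2 and 4 (9.12% and 4.49%), and without WT 3 they were 3 and 5 (12.4% and 8.37%).

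Markers of other cells moved too. All 13 macrophage markers rose, with a sum of 1091 to 1767 CPM in dEx51 and 81.7 to 162 CPM in WT. Of 10 fibroblast markers 6 rose and 0 fell, with sums of 5964 to 6759 CPM in dEx51 and 2694 to 4871 CPM in WT. None of these markers had 0 counts in a dEx51 library. The part of these cells in the values of Actn1 and Wdr1 was not tested. Of 11 embryonic and regenerating fibre markers 9 rose and 0 fell, with sums of 966 to 1368 CPM in dEx51 and 1015 to 1062 CPM in WT. Myh8, which was not called, made up 744 CPM of the mean in dEx51 and 977 CPM in WT. The embryonic myosin gene Myh3 had 128, 87.5 and 193 CPM in dEx51 4, 5 and 6, against 6.75, 8 and 9.67 CPM in WT 1, 2 and 3, with dEx51 5 lowest of the mutant libraries, as it was for Actc1. Markers of this list did not share 1 order. Myl4, with 1607, 632 and 1290 counts in dEx51 4, 5 and 6, was also lowest in dEx51 5. Myog, with 723, 1198 and 464 counts, and Mymx, with 47, 71 and 44, were highest there. The part of regenerating fibres in the Actc1 value was not tested. Of 8 endothelial markers 0 rose and 4 fell, with sums of 344 to 431 CPM in dEx51 and 487.5 to 579.8 CPM in WT. Only 2 of the 7 heart markers passed the filter, of which 0 rose and 1, Myh6, fell, and the 7 summed to 2.35 to 2.91 CPM in dEx51 and 4.71 to 6.20 CPM in WT.

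In the authors' deposited table of the comparison, which has a likelihood-ratio column, 4 of the 39 genes are higher and 14 lower at the same threshold. The share of all genes called in that table was not computed, so these counts have no background here. All 9 genes called here are called there in the same direction, and both sets of calls come from the same libraries. Called there and not here are Mybph, higher (FDR 0.0234), and Ttn, Myoz1, Tcap, Synpo2, Myom1, Tmod4, Acta1 and Smyd1, lower. The FDR there is 0.00762 for Tcap, 0.00206 for Synpo2 and 0.00839 for Myom1. Of 18 alternatives here, Tcap was called lower in 5 and Synpo2 and Myom1 in 4 each. The log2 fold change in the authors' deposited table is 1.35 for Actc1, -0.75 for Neb and -0.73 for Cmya5.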

How the data were processed

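Per the submitters' processing notes, which give no roles, the build was GRCm38/mm10 and the tools included FastQC 0.11.4, featureCounts 1.6.0 and edgeR 3.30.1. The aligner, strand setting and annotation release are not stated in the sources used here. The authors deposited raw counts per gene with gene lengths, and RPKM (reads per kilobase and library size) for 13958 genes. Their comparison table, per the file headers, holds a log2 fold change and log2 CPM, a likelihood-ratio score, p-values with FDR, and the −log10 p-value, all deposited by the authors.

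From the counts, edgeR 4.0.16 in R 4.3.3 was run with TMM factors, filterByExpr, the quasi-likelihood F-test over 14335 genes and Benjamini-Hochberg adjustment, fitting both groups of 3 without a covariate. The SE is the log2 fold change divided by the square root of F. Levels per length divide CPM by the deposited length, which equals GENCODE M21 for 35 of 39 genes. Ratios of 10 gene pairs were tested by exact two-sided permutation. The result of 1 pair is not reported here. Alternatives used DESeq2 1.42.0, limma 3.58.1, other scalings and filters, the replicate block, RPKM, and fits without 1 library. The script was tested on simulated data. The gene members and lists were chosen with earlier results of these data known. Every listed gene is named, with values per library for genes called at an absolute log2 fold change of at least 0.5 and for the paired genes. Other listed genes given per library were added after their values were seen. Of the 41 other genes, the 3 called with the smallest adjusted p in each direction are named. The labels name no animals behind the biological replicates, so the p-values measure only the spread between these samples, which may be technical.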

Additional observations from a re-analysis of the deposited data

How the results depend on the processing

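With scaling to library size alone, 37.6% of all genes were called higher and 2.33% lower. With log2 of the authors' RPKM plus 0.1 the shares were 37.4% and 2.21%, and with RPKM plus 1 they were 36.3% and 2.21%. Of the 39 genes, 12 (30.8%) were called higher and 1 (2.56%) lower in each of these settings. DESeq2's Wald test gave 5 (12.8%) and 14 (35.9%), against 15.8% and 12.4% of all genes, and an adjusted p below 0.01 gave 0 and 0, against 8.25% and 3.52%. Omitting the filter on low counts gave 4 (10.3%) and 12 (30.8%), against 10.1% and 6.22% of 28485 genes. The likelihood-ratio test, chosen after the data were seen, gave 3 (7.69%) and 11 (28.2%), against 17.5% and 12.98%. Leaving out 1 library gave 0 to 2 higher (at most 5.13%) and 0 to 16 lower (at most 41.03%). All genes in those fits gave 9.12% to 18.05% higher and 4.49% to 14.62% lower. For the 41 other genes the counts were 19 (46.3%) and 3 (7.32%) with library size and with either RPKM setting. They were 2 (4.88%) and 3 (7.32%) at 0.01, against 8.25% and 3.52% of all genes. Without 1 library they were 2 to 13 (4.88% to 31.7%) and 4 to 10 (9.76% to 24.4%). The counts of all genes tested called higher in dEx51, and of all genes tested called lower in dEx51, were 5394 and 334 with library size, 5222 and 309 with RPKM and 0.1, 5071 and 308 with RPKM and 1, 1182 and 504 at 0.01, and 1346 to 2662 and 663 to 2157 without 1 library. Whether the labels' replicate numbers pair the samples was not settled. With each group centred on its mean, the same-number correlations were 0.40, 0.016 and 0.077, and the different-number ones -0.27 to 0.17. Centring groups of 3 libraries ties these values to each other, so they cannot decide it. With the replicate block 5 of the 39 genes (12.8%) were called higher and 5 (12.8%) lower, against 17.5% and 13.7% of all genes, and the calls of Neb and Myot ended. Values of uncalled genes that changed sign, with library size, RPKM and 0.1, and RPKM and 1 in that order, were 0.32, 0.22 and 0.22 for Actn2 log2 fold change, 0.20, 0.0219 and 0.0313 for Myoz2 log2 fold change, 0.0854, 0.0862 and 0.0859 for Ldb3 log2 fold change, 0.11, 0.0883 and 0.0875 for Flnc log2 fold change, 0.20, 0.20 and 0.20 for Pdlim5 log2 fold change, 0.10, 0.11 and 0.11 for Pdlim7 log2 fold change, 0.33, 0.33 and 0.32 for Synpo2l log2 fold change, 0.19, 0.19 and 0.19 for Mybpc1 log2 fold change, 0.17, 0.15 and 0.14 for Tmod1 log2 fold change, 0.0273, 0.022 and 0.0219 for Tmod4 log2 fold change, 0.0387, 0.0397 and 0.0397 for Acta1 log2 fold change, 0.0137, 0.0127 and 0.0126 for Smyd1 log2 fold change. Without the filter Synpo2l was at 0.00245. Leaving out 1 library gave sign changes in these ranges: -0.0473 to 0.35 for Obsl1, -0.31 to 0.22 for Actn2, -0.60 to 0.17 for Myoz2, -0.15 to 0.10 for Synpo2l, -0.0642 to 0.21 for Myom2, -0.12 to 0.63 for Myom3, -0.44 to 0.00968 for Tmod1, -0.00026 to 0.29 for Lmod3. The causes were not tested. The lowest count of a listed gene in a library was 188, and each group had 3 libraries.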
